A study of Homo sapiens with 9 samples.

Results

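The genes described here encode the subunits of the respiratory chain and of the ATP synthase that are made from nuclear DNA. They were chosen by name from the deposited count table: symbols beginning with NDUFA, NDUFB, NDUFC, NDUFS, NDUFV, UQCR, COX4I, COX5, COX6, COX7, COX8 or ATP5, together with SDHA, SDHB, SDHC, SDHD and CYC1. Assembly factors named NDUFAF, the gene COX7A2L, numbered pseudogenes and antisense genes were left out, which removed 14 rows. This gave 89 of the 26364 gene rows, of which 40 belonged to complex I, 4 to complex II, 10 to complex III, 16 to complex IV and 19 to complex V, and they lay on 22 chromosomes. Of the 89 rows, 82 had more than 3 counts in at least 1 library.

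All 9 libraries were RNA sequencing of A549 cells, an established human lung adenocarcinoma line. The 2 control libraries were labelled WT. The 2 LA libraries came from cells with the genotype sgLOC388942; sgALK, in which guide RNAs to both loci had been used to make the LOC388942-ALK (LA) fusion. The 2 sgFOS libraries (sgFOS; sgLOC388942; sgALK) and the 3 sgScr libraries (sgScr; sgLOC388942; sgALK) carried a further guide, against FOS or with a scrambled sequence, so that every group other than the control had both fusion guides. The fusion cells were grown as monoclonal strains from A549-Cas9 cells infected with lentivirus, so a group can stand for 1 clone, and the label WT does not say that the control cells carried Cas9 or a lentivirus. The paper describes 2 guides against FOS, and the labels do not say which of them each sgFOS library carried. Nothing says that replicates came from separate cultures, so the p-values measure the spread between these libraries, which may be technical.

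The respiratory chain passes electrons from NADH and succinate to oxygen across the inner mitochondrial membrane. Complex I oxidises NADH and complex II oxidises succinate; both hand their electrons to ubiquinone. Complex III passes them on to cytochrome c, complex IV reduces oxygen, and complexes I, III and IV pump protons. Complex V, the ATP synthase, uses the proton gradient to make ATP. Each complex other than complex II also holds subunits encoded by mitochondrial DNA, which were not analysed here. The nuclear genes are spread over the genome, and many of their promoters are known to bind NRF1, ETS factors such as GABP, and YY1.

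The deposited values were raw read counts. Total counts were 14507228 to 20456341 a library. The subunit genes together took 1.51% and 1.22% of the counts in the control libraries, 0.617% and 0.575% in LA, 0.748% to 0.756% in sgScr, and 0.751% and 0.743% in sgFOS. The epithelial keratin genes KRT7, KRT8 and KRT18 were high in each library (KRT8, 51670 to 158979 counts). Other epithelial genes were lower: KRT19 had 531 to 2582 counts and EPCAM 49 to 275. CDH1 had 287 and 372 counts in the control and 1043 to 1816 in the other groups. The leukocyte genes PTPRC and CD3E had 0 counts in all 9, which allows up to 3 counts in each, and LYZ had 0 to 13. FOS, the targeted gene, had 68.4 and 74.1 CPM in sgFOS and 196 to 203 CPM in sgScr. CPM here are counts scaled to a common library total, after TMM normalisation over the 9 libraries.

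Promoter sequences are shown for the 3 genes with the largest falls in LA (NDUFA3, COX6B1, NDUFB7), for 2 genes that were not called in that comparison (NDUFS1, SDHD) and for NDUFA6, which fell in sgFOS. They are the 200 bases before the first RefSeq start of each gene in GRCh38.p14, 5′ to 3′ on the gene's strand. Capitals mark the letters GCGCATGC (core of the NRF1 site), CCGGAAG (ETS site) or AAGATGGCG (YY1 site), read on either strand.
NDUFA3 (chr19:54102655-54102854, plus strand): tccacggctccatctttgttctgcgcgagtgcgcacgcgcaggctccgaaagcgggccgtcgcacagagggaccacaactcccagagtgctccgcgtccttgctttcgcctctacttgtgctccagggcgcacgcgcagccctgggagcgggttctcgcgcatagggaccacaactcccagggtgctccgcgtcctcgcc
COX6B1 (chr19:35648123-35648322, plus strand): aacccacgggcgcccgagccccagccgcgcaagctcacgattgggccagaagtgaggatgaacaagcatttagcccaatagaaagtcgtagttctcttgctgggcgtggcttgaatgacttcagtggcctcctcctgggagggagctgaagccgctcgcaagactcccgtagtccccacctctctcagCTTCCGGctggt
NDUFB7 (chr19:14572067-14572266, minus strand): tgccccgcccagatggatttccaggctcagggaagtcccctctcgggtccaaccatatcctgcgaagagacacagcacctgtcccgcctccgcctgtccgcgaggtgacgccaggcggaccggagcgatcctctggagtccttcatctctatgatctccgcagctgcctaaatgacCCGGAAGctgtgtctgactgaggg
NDUFS1 (chr2:206159445-206159644, minus strand): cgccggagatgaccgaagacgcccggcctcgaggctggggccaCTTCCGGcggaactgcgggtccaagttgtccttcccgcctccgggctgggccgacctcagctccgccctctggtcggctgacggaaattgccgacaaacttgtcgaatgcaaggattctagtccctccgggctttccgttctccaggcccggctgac
SDHD (chr11:112086673-112086872, plus strand): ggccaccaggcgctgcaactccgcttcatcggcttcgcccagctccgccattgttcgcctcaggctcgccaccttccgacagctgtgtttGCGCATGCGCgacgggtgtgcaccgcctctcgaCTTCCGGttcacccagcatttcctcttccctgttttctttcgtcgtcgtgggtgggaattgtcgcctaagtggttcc
NDUFA6 (chr22:42090773-42090972, minus strand): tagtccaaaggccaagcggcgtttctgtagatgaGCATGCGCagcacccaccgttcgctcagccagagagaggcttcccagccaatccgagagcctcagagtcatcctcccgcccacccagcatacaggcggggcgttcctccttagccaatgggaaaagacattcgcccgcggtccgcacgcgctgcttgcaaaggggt

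The letters were counted in the full RefSeq windows, from 250 bases before to 50 after each start, for the 70 subunit genes with an entry. At least 1 of the 3 motifs stood in 33 of them (47.1%), against 16.5% of the 27305 genes with a window and 28.5% of the 10523 genes of that kind tested in the comparison of LA with the control. The NRF1 core was found in 14 of the 70 subunit genes (against 6.16% of the tested genes), the ETS letters in 20 (28.6%, against 21.0%) and the YY1 letters in 9 (12.9%, against 4.51%). The NRF1 core overlaps its own reverse complement, so that 1 palindrome, as in SDHD, gives a match on each strand. Among the printed stretches, that of SDHD holds 2 of the motifs and that of NDUFA3 none.

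The levels of the subunits were first set out over the 9 libraries. Per kilobase of transcript, the 4 highest mean levels over all libraries were those of COX6B1, a small subunit of complex IV, ATP5B (the catalytic beta subunit of the ATP synthase), COX4I1 (the largest nuclear-encoded subunit of complex IV) and ATP5G1 (subunit c of the membrane ring). COX6B1 stood at 1383 ± 817 CPM per kilobase in the control (SD, n = 2), 241.6 ± 49.2 in LA (n = 2), 347 ± 1.04 in sgScr (n = 3) and 337 ± 4.60 in sgFOS (n = 2). ATP5B stood at 705 ± 104, 387 ± 67.4, 551 ± 9.90 and 529 ± 16.1 CPM per kilobase in the same order. The control means of COX6B1, COX4I1 (835 ± 499) and ATP5G1 (713 ± 442) differed from that of ATP5B by less than the SD of each over the 2 control libraries. COX6B1 was above ATP5B in both control libraries, and ATP5B was above COX6B1 in each LA, sgScr and sgFOS library.

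The control libraries differed from each other. After scaling, 65 of 79 subunits with a mean of at least 1 CPM were higher in control replicate 1 than in control replicate 2, with a median log2 ratio of 0.67, against 0.03 over 13291 genes of that level. COX4I1 stood at 943 and 383 CPM, whereas NDUFS1, the largest subunit of complex I and a carrier of iron-sulfur clusters, stood at 55.4 and 110 CPM. For 64 of 81 subunits, control replicate 2 lay between control replicate 1 and both LA libraries. The LA pair differed less (median log2 ratio of the subunits 0.09), and the median ratio within the sgScr and sgFOS groups was between -0.04 and 0.03.

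**Figure D1:**
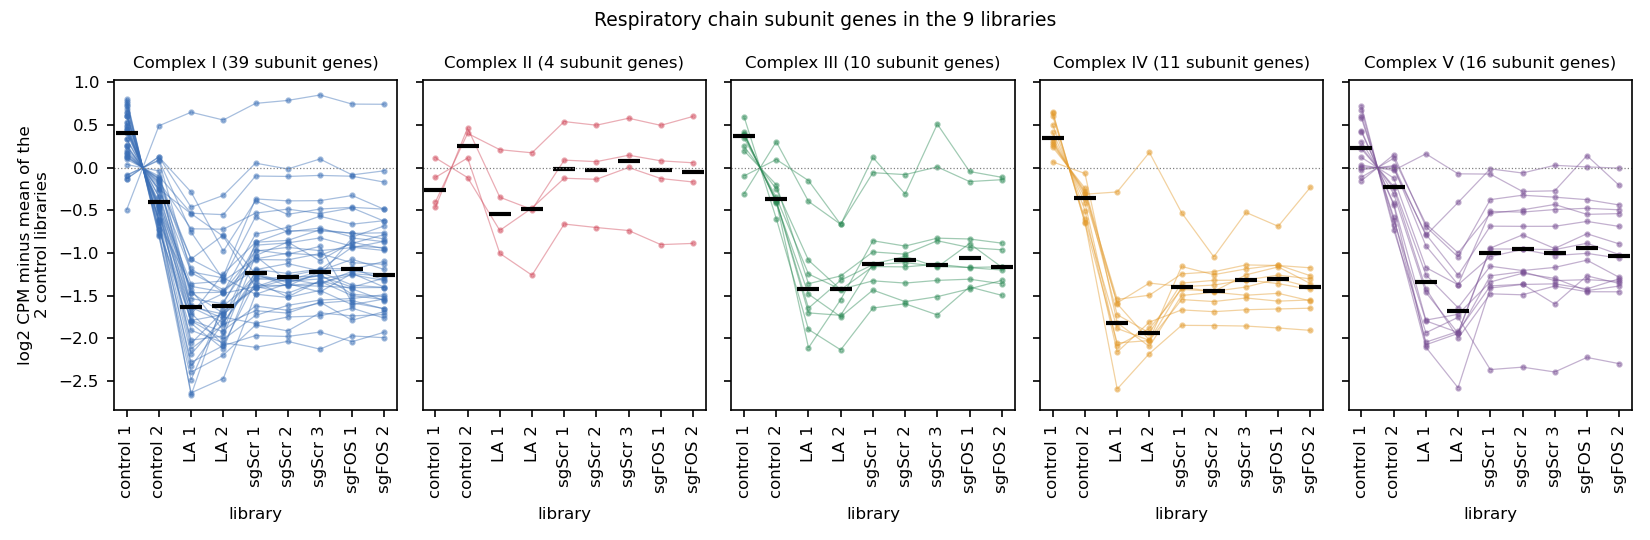
Log2 CPM of each subunit gene minus its mean over the 2 control libraries (y axis) in the 9 libraries (x axis), 1 panel a complex; each line is 1 gene and black bars are medians. The complex II median in LA was -0.54 and -0.48, against -1.82 and -1.94 for complex IV, and the sgScr and sgFOS libraries lay between LA and control for complexes I, III, IV and V.

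The comparison of LA with the control asked how the fusion cells differed from the parental line. Subunits of complexes I, III, IV and V were lower in LA: 61 of the 80 subunits tested fell at an adjusted p under 0.05 (edgeR quasi-likelihood test, Benjamini-Hochberg adjustment over 14425 genes), where 9.94% of all genes tested fell. The median log2 fold change of the 80 was -1.67, against 0.04 over all genes tested. None rose, where 9.57% of all genes did; no subunit was higher at an unadjusted p under 0.05 either, and DESeq2 called 0 higher and 64 lower. For 75 of the 80, both LA libraries were below both control libraries, a pattern seen in 30.0% of all genes tested, and 1 (NDUFS1) had both LA libraries above, as did 33.8% of all genes. These are bulk values on a relative scale, so fewer cells with a transcript and less of it in each cell cannot be told apart, nor was the RNA content per cell measured.

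The number of calls rested on having both LA libraries, over all genes as well as among the subunits. Without LA replicate 1 the median log2 fold change of the subunits was -1.73, and without LA replicate 2 it was -1.57. In these fits the lone LA library was assumed to vary like the controls. Without control replicate 1 the median was -1.31.

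In complex I, 31 of 39 tested subunits fell, with a median log2 fold change of -1.71. NDUFA3, a small accessory subunit of the membrane arm (chromosome 19, 54606036 to 54612564 in GRCh37), had 126 and 42.0 CPM in the control and 11.2 and 12.7 CPM in LA. Its log2 fold change of -2.82 (SE 0.48, adjusted p = 0.00088, edgeR) was the largest fall of any subunit in this fit. It was not the largest with the length and GC correction described below. NDUFB7 (chromosome 19, 14676890 to 14682878), another accessory subunit, went from 193 and 66.4 CPM to 21.1 and 24.3 CPM, a log2 fold change of -2.53 (SE 0.47, adjusted p = 0.0014). The groups did not overlap for either gene, and in both genes control replicate 1 was far above control replicate 2.

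Of the core subunits of the peripheral arm of complex I, some were called and others not. NDUFS8 and NDUFS7, which hold iron-sulfur clusters, and NDUFS3 fell, with log2 fold changes of -2.17 (SE 0.46), -2.10 (SE 0.43) and -1.83 (SE 0.42). NDUFV1, which binds NADH and the flavin, fell as well: it had 333 and 135 CPM in the control and 80.7 and 77.0 in LA (log2 fold change -1.59, SE 0.44, adjusted p = 0.014, edgeR). Its partner NDUFV2 was not called (-0.96, SE 0.39, adjusted p = 0.087). NDUFS1 had 55.4 and 110 CPM in the control and 123 and 115 in LA, with a log2 fold change of 0.50 (95% interval -0.36 to 1.35, adjusted p = 0.42). It was the one complex I subunit with a positive value. NDUFA4, counted here by its prefix but now regarded as a subunit of complex IV, fell from 304 and 239 CPM to 86.7 and 81.7 CPM (log2 fold change -1.71, SE 0.41).

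Complex II, which consists of nuclear-encoded subunits only and is shared with the citrate cycle, had 1 of 4 subunits called and a median log2 fold change of -0.58. SDHB, the iron-sulfur subunit, fell from 106 and 125 CPM to 57.1 and 47.7 CPM (log2 fold change -1.16, SE 0.40, adjusted p = 0.041, edgeR). SDHA, the flavoprotein, had 195 and 166 CPM in the control and 108 and 129 in LA, which was not called (-0.63, 95% interval -1.44 to 0.18). The membrane anchors SDHC (51.7 and 90.8 against 79.4 and 77.4 CPM) and SDHD (38.0 and 72.9 against 41.3 and 37.3 CPM) overlapped between the groups. Their log2 fold changes were 0.11 (95% interval -0.73 to 0.95) and -0.53 (-1.40 to 0.34). The intervals of SDHA and SDHD include the SDHB value and that of SDHC does not, and the difference between complex II and the other complexes was not tested. As a share of all subunit CPM, complex II took 2.07% and 3.66% in the control and 4.95% and 5.43% in LA, and complex IV 23.6% and 19.1%, then 14.3% and 16.2%.

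In complex III, 8 of 10 subunits fell, with a median of -1.47. UQCRQ, a small ubiquinone-binding subunit, showed the largest fall (160 and 69.9 CPM in the control, 28.1 and 23.7 CPM in LA; log2 fold change -2.17, SE 0.44). The electron carriers CYC1 (cytochrome c1) and UQCRFS1 (the Rieske iron-sulfur protein) fell by 1.35 and 1.29 on the log2 scale (SE 0.41 and 0.42). Of the core proteins, UQCRC1 fell by 1.40 (SE 0.42), whereas UQCRC2 had 174 and 266 CPM in the control and 164 and 136 CPM in LA and was not called (-0.58, adjusted p = 0.32, edgeR). The other uncalled row was UQCRHL, a near-identical copy of UQCRH with 15 to 44 counts a library, whose reads cannot be told from those of UQCRH with certainty.

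In complex IV, 10 of 11 tested subunits fell and the median of -1.98 was the lowest of the 5 complexes. COX6B1 (chromosome 19, 36139225 to 36149684) went from 957 and 393 CPM to 101 and 135 CPM, a log2 fold change of -2.53 (SE 0.47, adjusted p = 0.0014, edgeR). COX4I1 went from 943 and 383 to 144 and 147 CPM (-2.20, SE 0.46). COX5B and COX6C fell by 2.10 and 2.09 (SE 0.44 and 0.43), and COX5A by 1.53 (SE 0.42) on the log2 scale. The spread between the control libraries is plain in these genes, yet each LA value lay below the lower control value.

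The widely expressed isoforms of complex IV held nearly all the counts. COX4I1, COX6A1, COX6B1, COX7A2, COX7B and COX8A were each tested and fell, with log2 fold changes between -2.53 and -1.57. Their tissue-limited partners were at or near 0: COX6A2 and COX7B2 had 0 counts in all 9 libraries, which allows up to 3 counts in each, COX4I2 had 0 or 1, and COX8C 0 to 3. COX7A1, the heart and muscle form, had 0 to 21 counts and was not tested. COX6B2, the testis form, had 1 to 14 counts, and a difference was not detectable at this depth (log2 fold change -0.13, SE 0.87). NDUFA4L2, a paralog of NDUFA4, had 10 to 23 counts.

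In complex V, 11 of 16 tested rows fell, with a median of -1.61. ATP5G1 (chromosome 17, 46970127 to 46973233) had 553 and 216 CPM in the control and 79.9 and 57.3 CPM in LA (log2 fold change -2.50, SE 0.47, adjusted p = 0.0015, edgeR). Its paralogs ATP5G2 and ATP5G3 encode the same mature subunit c, and fell by 2.10 (SE 0.43) and 1.30 (SE 0.40) on the log2 scale. The 2 largest subunits of the catalytic head, ATP5A1 and ATP5B, had values nearer to 0. ATP5A1 (496 and 578 CPM in the control, 339 and 268 in LA) and ATP5B (1111 and 1370, then 764 and 597) had log2 fold changes of -0.85 and -0.89 (SE 0.41 and 0.43) and were not called, although the groups did not overlap. ATP5C1, the gamma subunit of the rotor, was called just inside the threshold (-1.15, SE 0.41, adjusted p = 0.049), and ATP5O, a part of the stator stalk, fell by 1.73 (SE 0.42). ATP5D, the delta subunit, fell by 2.04 (SE 0.46). With the length and GC correction described below, ATP5A1 and ATP5B were at -0.85 and -0.65. ATP5C1, ATP5G3 and ATP5D were then at -0.68, -0.59 and -0.42, and ATP5G1, ATP5G2 and ATP5O at -1.39, -1.15 and -0.97. By these values ATP5A1 and ATP5B were not nearer to 0 than ATP5G3 and ATP5D.

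Several complex V rows say little about the enzyme. ATP5S and ATP5SL, at log2 fold changes of 0.03 and -0.62, are named for similarity and are not subunits of it. ATP5E had 0 to 5 counts a library and the readthrough rows ATP5J2-PTCD1 and NDUFC2-KCTD14 had 0. The gene rows PTCD1 and KCTD14, which share these loci, had 0 to 4 and 0 counts, so genes overlapped by a readthrough model could be undercounted. The annotation and program used for counting are not given in the sources used here. Subunits of the synthase that carry other prefixes, USMG5 and C14orf2, and its inhibitor ATPIF1 also fell, all 3 at an adjusted p under 0.05 with a median of -1.92.

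**Figure D2:**
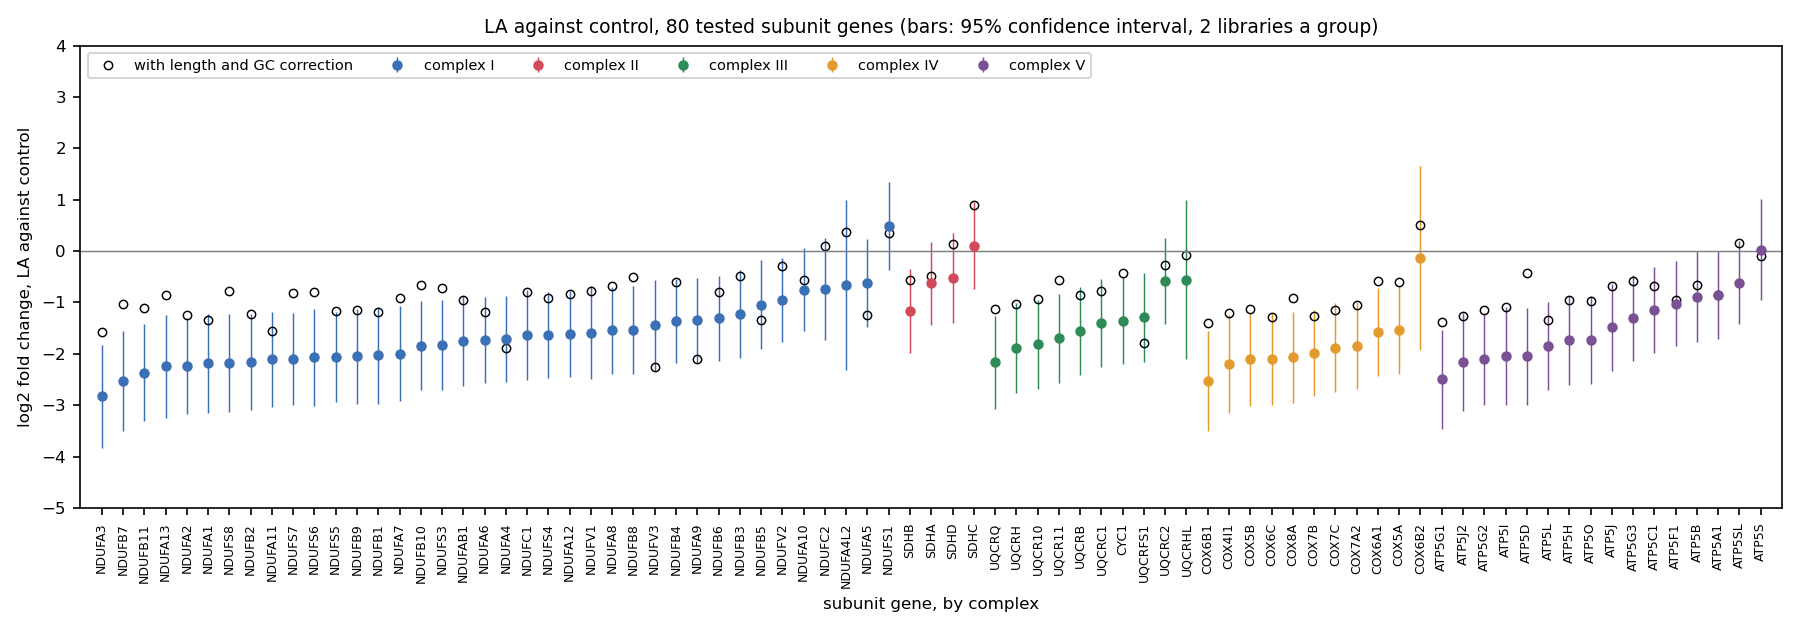
Log2 fold change of LA against control (y axis) for 79 of the 80 tested subunit genes (x axis, by complex), with 95% confidence intervals; open circles are values from the fit corrected for length and GC. NDUFA3 is lowest at -2.82, NDUFS1 highest at 0.50, and most open circles lie nearer to 0 than the filled ones.

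The fold changes moved with transcript length in this comparison. The tested subunits had a median transcript length of 745 bases, against 2578 over all tested genes with a length. Across genes, the Spearman correlation of the log2 fold change with length was 0.56 (13985 genes) and, over the 80 subunits, 0.61; genes share libraries and are not independent replicates. Among the tested genes with the shortest transcripts (53 to 1654 bases, the first of 4 length classes of equal size), 30.6% fell and the median was -0.88. The 66 subunits in that class had a median of -1.78, and 56 of them fell. Of the 14 longer subunits, 5 fell, among them NDUFV3 and NDUFA9. Their lengths of 5200 and 4499 bases are medians over annotated transcripts, and the transcripts marked canonical have 5725 and 8356. By these lengths both lay in the class of the longest, where 1.12% of all genes fell. Which of their transcripts these cells expressed was not measured. The ratio of control replicate 1 to control replicate 2 moved with length too, with a Spearman correlation of -0.52 over 79 subunits and -0.32 over all genes.

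When a smooth trend on length and on GC was first removed from each library, 35 subunits fell instead of 61, where 6.68% of 13985 genes did, and the median was -0.85. None rose, where 6.27% of these genes did (edgeR); without the correction 0 rose with edgeR, with DESeq2 or at an unadjusted p under 0.05. By complex, 16 of 39, 0 of 4, 3 of 10, 8 of 11 and 8 of 16 subunits fell from I to V; for complex II, edgeR without the correction called 1, as did DESeq2, and 1 had an unadjusted p under 0.05. The corrected medians were -0.85, -0.17, -0.81, -1.12 and -0.90. The largest corrected falls were those of NDUFV3 (-2.25), NDUFA9 (-2.09), NDUFA4 (-1.89) and UQCRFS1 (-1.79), each further from 0 than without the correction. Of the 35 subunits, 32 were also called without the correction. NDUFA5, NDUFB5 and ATP5F1, named after their values were seen, were called only with the correction. NDUFA3 (-1.58, adjusted p = 0.0095), COX6B1 (-1.40, adjusted p = 0.014) and ATP5G1 (-1.39, adjusted p = 0.018) were called with and without it, whereas NDUFS8, NDUFS7, NDUFS3, NDUFV1, SDHB, UQCRC1, CYC1, COX5A, COX6A1, ATP5C1, ATP5G3 and ATP5D were not called with it (edgeR). The corrected value of SDHC (0.90) rests on a median annotated length of 460 bases, where the transcript marked canonical has 1308. Whether length as such, fragmentation of RNA or the cells' biology set the trend was not tested.

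**Figure D3:**
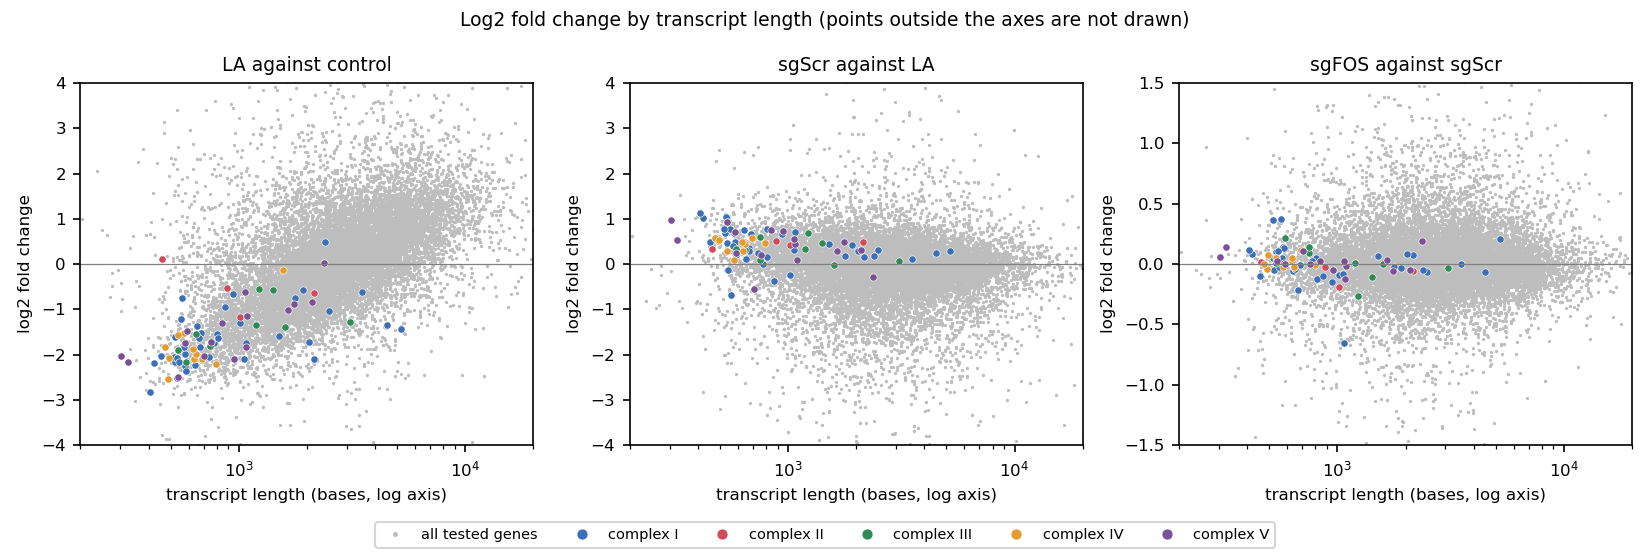
Log2 fold change (y axis) by transcript length in bases (log x axis) for all tested genes in grey and for subunit genes coloured by complex, 1 panel a comparison. Spearman correlations over the subunits were 0.61 for LA against control, -0.44 for sgScr against LA and -0.35 for sgFOS against sgScr, and over all genes 0.56, -0.12 and 0.00.

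Related gene groups gave the following in LA against control. Of 81 tested genes for cytosolic ribosomal proteins, 75 fell, with a median log2 fold change of -2.09; of 76 for mitochondrial ribosomal proteins, 46 fell, with a median of -1.27. Of 47 assembly factors of the complexes, 16 fell, with a median of -0.83. Over all genes tested, 9.94% fell. With the length and GC correction these falls were 65, 22 and 6, with medians of -1.20, -0.68 and -0.53, where 6.68% of all genes fell. The citrate cycle enzymes showed 3 falls in 14 and a median of -0.04. With the correction they showed 2 falls and 1 rise, where 6.27% of all genes rose, and a median of -0.12. Of 10 tested regulators of mitochondrial gene expression, edgeR and DESeq2 called 0 and 0 had an unadjusted p under 0.05, with a median of 0.16. TFAM, which packages and transcribes mitochondrial DNA, had 44.7 and 71.4 CPM in the control and 90.7 and 70.6 in LA (log2 fold change 0.45, SE 0.41), and NRF1, a transcription factor of many subunit genes, 29.3 and 25.7 against 19.5 and 20.5 CPM (-0.48, SE 0.42). PPARGC1A, a coactivator of mitochondrial biogenesis, had 2 counts in 1 control library and 0 in all others. The values of PPARGC1B (0.89), PPRC1 (0.34), GABPA (0.72), GABPB1 (-0.11), ESRRA (0.07), YY1 (0.21), TFB2M (0.12) and POLRMT (-0.83) were not called either.

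The sgScr libraries carry both fusion guides and a scrambled guide, and their comparison with LA shows how the subunits differed between these fusion cells. Subunits were higher in sgScr: 40 of 79 tested rose, where 10.6% of 14521 genes did, and 2 fell, where 12.3% did (edgeR). The median log2 fold change was 0.43, against -0.02 over all genes. All sgScr libraries were above both LA libraries for 62 subunits, as were 29.5% of all genes, and below them for 5, as were 27.2%. By complex, 15 of 39, 4 of 4, 4 of 10, 8 of 10 and 9 of 16 rose from I to V. Both comparisons use the LA libraries, so they are not independent, and the sources used here give no date or batch of the libraries.

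NDUFA3 had 11.2 and 12.7 CPM in LA and 25.7, 28.1 and 26.1 CPM in sgScr (log2 fold change 1.13, SE 0.12, adjusted p = 0.0037, edgeR). NDUFS6, an accessory subunit of complex I, had 29.3 and 26.6 CPM in LA and 55.7, 56.5 and 61.7 in sgScr (1.03, SE 0.10, adjusted p = 0.0032). ATP5I, the small e subunit of the synthase, had 14 and 12.7, then 25.7, 28.7 and 25.6 CPM (0.98, SE 0.12, adjusted p = 0.0055). In each of the 3 genes the sgScr values lay above both LA values; for NDUFA3 and ATP5I they also lay below both control values, whereas for NDUFS6 the highest sgScr value passed the lower control value of 61.4 CPM. All 4 complex II genes rose: SDHA by 0.49 (SE 0.11), SDHB by 0.41 (SE 0.11), SDHC by 0.33 (SE 0.08) and SDHD by 0.50 (SE 0.09). The 2 genes that fell were ATP5D (59.7 and 67.8 CPM in LA, 44.1, 45 and 43.3 in sgScr; -0.55, SE 0.09, adjusted p = 0.013) and NDUFC2 (8.17 and 6.71, then 4.28, 4.72 and 5.00 CPM; -0.69, SE 0.18, adjusted p = 0.042).

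Leaving out any 1 of the 3 sgScr libraries cut the rises to between 2 and 4 and the falls to 0, where all 5 libraries gave 2 falls with edgeR, 1 with DESeq2 and 4 at an unadjusted p under 0.05. Over all genes there were then 171 to 222 rises and 218 to 310 falls, against 1534 and 1793 with all 5 libraries. NDUFA3 and NDUFS6 were called each time (edgeR). Without LA replicate 1 the median log2 fold change was 0.46 and without LA replicate 2 it was 0.38, each fit having 1 LA library. With the length and GC correction, 39 rose, where 15.7% of 14076 genes did, and 3 fell, where 12.9% did, with a median of 0.35. The 3 falls were NDUFB6, NDUFC2 and NDUFV2, named after their values were seen, while ATP5D (-0.35, adjusted p = 0.054), SDHC (0.16, adjusted p = 0.18) and COX6A1 (0.17, adjusted p = 0.19) were not called (edgeR). Without the correction, of 80 cytosolic ribosomal protein genes 56 rose, of 76 mitochondrial ones 19, and of 47 assembly factors 11, where 10.6% of all genes did. With it, 53, 20 and 11 rose, where 15.7% of all genes did.

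The comparison of sgFOS with sgScr asked how fusion cells with a guide against FOS differed from fusion cells with the scrambled guide. FOS itself fell by 1.48 on the log2 scale (SE 0.04). The subunits hardly moved: 4 of 79 tested fell, where 10.5% of 14196 genes did, and 3 rose, where 12.2% did (edgeR). The median log2 fold change was 0.003, against -0.0015 over all genes, and 75 of the 79 lay within 0.25 of 0. For 16 subunits all sgFOS libraries were below all sgScr libraries (24.5% of all genes) and for 14 above (24.0%). Standard errors here were 0.03 to 0.36, with a median of 0.05, against 0.39 to 0.87 and a median of 0.42 in LA against control, so that far smaller differences could be called.

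NDUFA6 was the exception in size. This accessory subunit of complex I (chromosome 22, 42481530 to 42486888, minus strand, in GRCh37) had 39.3, 37.9 and 40.4 CPM in sgScr and 25.4 and 24.2 CPM in sgFOS. The LA libraries, at 24.9 and 22.3 CPM, lay at the sgFOS level, and the controls, at 84.9 and 70.0 CPM, above all others. The log2 fold change of sgFOS against sgScr was -0.66 (SE 0.07, 95% interval -0.80 to -0.51, adjusted p = 2.4e-09, edgeR), and it was called without any 1 of the 5 libraries, at -0.69 to -0.62. It ranked 151 of 14196 genes by p, and 89 called genes fell further. Its promoter, printed above, has the NRF1 letters 166 bases before the start, and its window has the YY1 letters 26 bases after it.

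The neighbours of NDUFA6 were read in the same libraries. SMDT1, the next gene and on the other strand, had a log2 fold change of -0.21 (SE 0.14, adjusted p = 0.28) and TCF20 -0.08 (SE 0.05, adjusted p = 0.26, edgeR). The antisense gene NDUFA6-AS1, which starts beside it, had 31 to 46 counts in sgScr and 19 and 20 in sgFOS (-0.55, SE 0.30, adjusted p = 0.20). Of all 17 other genes tested within 500 kilobases, XRCC6 (-0.10, adjusted p = 0.033) and SERHL (-1.26, adjusted p = 0.021) were called. These neighbours were named after their values were seen.

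The other 6 calls were small, and they were named because they were few. NDUFB2, an accessory subunit of the membrane arm of complex I (chromosome 7, 140390577 to 140422590), had 22.5, 18.3 and 19.1 CPM in sgScr and 26.2 and 25.4 in sgFOS (0.37, SE 0.09, adjusted p = 0.0016, edgeR). Its annotated span overlaps BRAF (0.12, not called) and ADCK2, which rose (0.26, SE 0.09, adjusted p = 0.022), and counts of overlapping genes are uncertain where the strand setting of the counting is not known. SDHB had 72.6, 70.6 and 68.9 CPM in sgScr and 61.4 and 62.0 in sgFOS (-0.19, SE 0.05, adjusted p = 0.0038). UQCRQ rose by 0.21 (SE 0.07) and NDUFV3, of the NADH-oxidising part of complex I, by 0.21 (SE 0.08). NDUFS4, an accessory subunit of complex I, fell by 0.22 (SE 0.07) and UQCRC2 by 0.10 (SE 0.04). Of the 7 calls, NDUFA6 alone passed the rule of the study's methods (a log2 fold change beyond 0.5 either way with an unadjusted p under 0.05).

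NDUFA6 and NDUFB2 were called without each library in turn, UQCRQ and SDHB in all but 1 of the 5 cases (adjusted p = 0.24 and 0.052 without sgFOS replicate 1), NDUFS4 in 2, UQCRC2 in 1 and NDUFV3 in none. DESeq2 called NDUFA6, NDUFB2 and SDHB alone. With the length and GC correction there were 2 falls and 5 rises, where 10.6% and 8.81% of 13786 genes fell and rose, and of these calls NDUFA6, SDHB, NDUFB2 and UQCRQ were made without it as well. In a fit of all 9 libraries, which takes on the spread of the control and LA pairs, edgeR called 0 subunits and 0 of all genes; in the 5 libraries alone 15 subunits had an unadjusted p under 0.05 and DESeq2 called 3. Of the 10 regulators tested, 2 fell, where 10.5% of all genes did, and 1 rose, where 12.2% did. GABPA (-0.28, SE 0.07, adjusted p = 0.0023) and YY1 (-0.17, SE 0.05, adjusted p = 0.0060) fell and PPRC1 rose (0.14, SE 0.04, adjusted p = 0.011, edgeR). PPRC1 was not called with the correction (0.051, adjusted p = 0.49, edgeR), and DESeq2 called 2 falls and 0 rises. TFAM had a log2 fold change of -0.01 (SE 0.05).

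**Figure D4:**
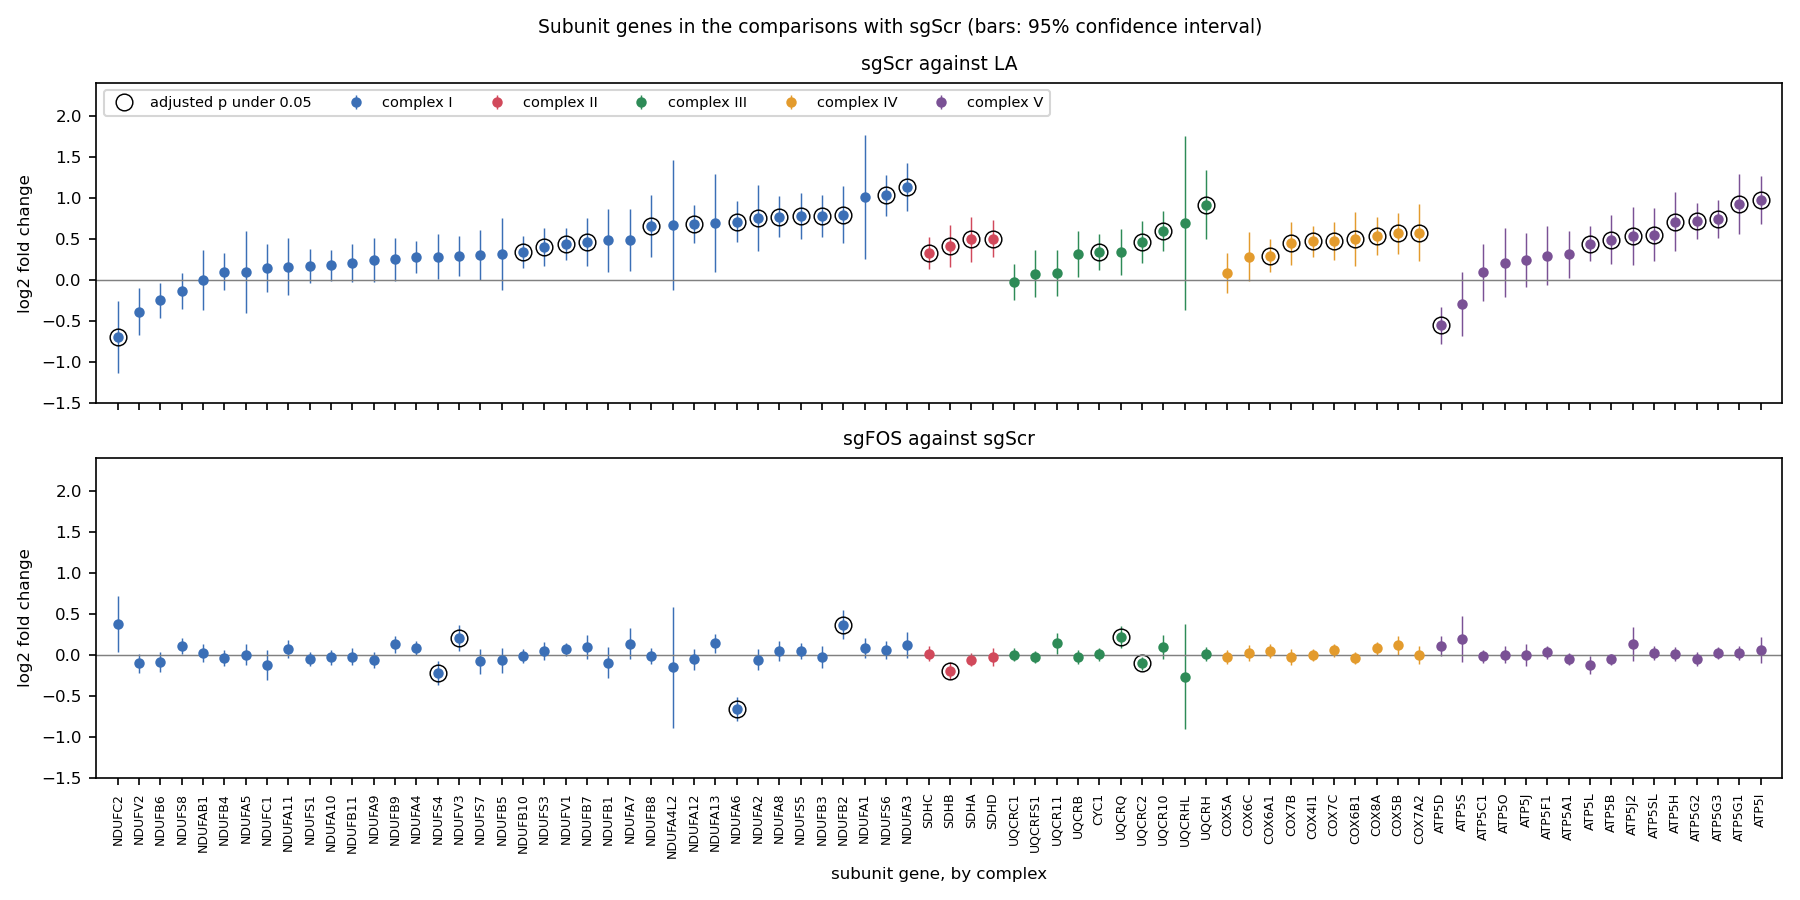
Log2 fold change (y axis) of sgScr against LA (upper panel) and sgFOS against sgScr (lower panel) for 78 of the 79 tested subunit genes (x axis, by complex), with 95% confidence intervals; rings mark an adjusted p under 0.05. Of the ringed genes in the upper panel all but NDUFC2 and ATP5D lie above 0, and the lower panel has 7 ringed genes, with NDUFA6 lowest at -0.66.

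**Figure D5:**
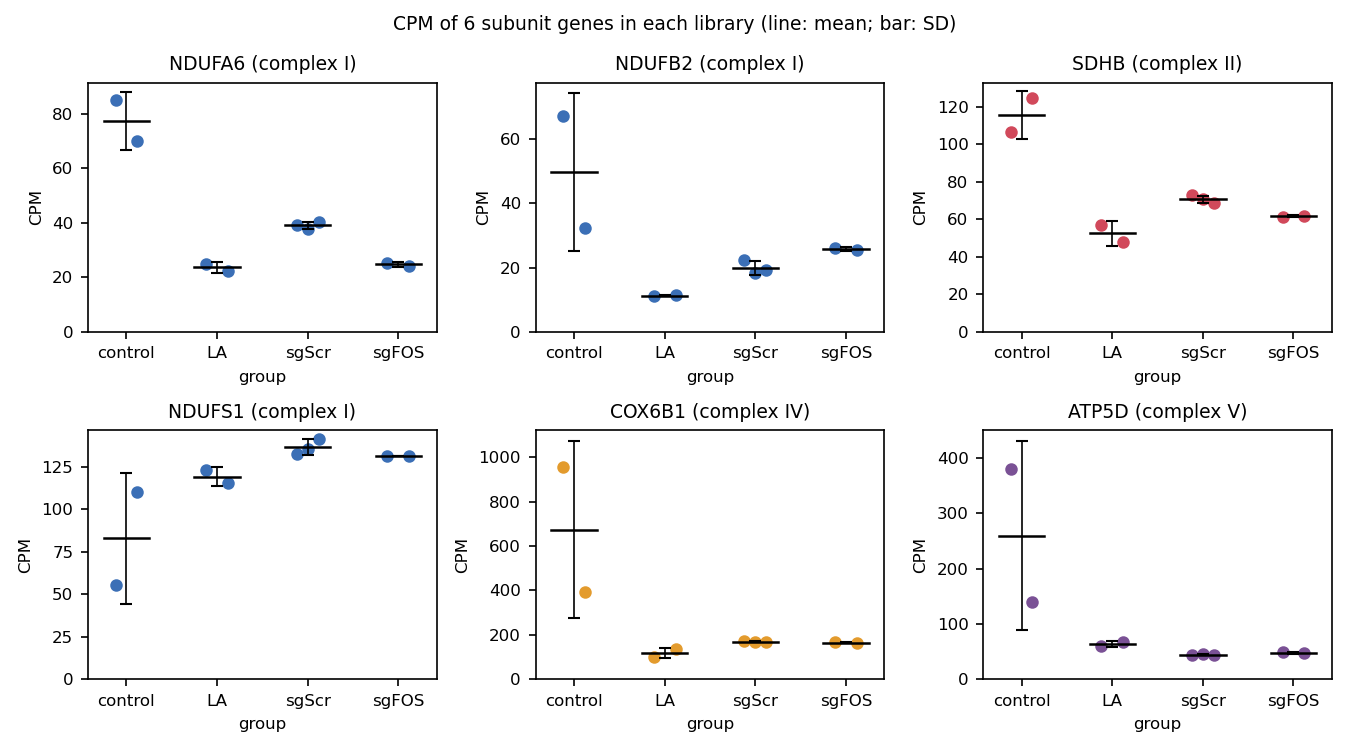
CPM (y axis) of 6 subunit genes in each library by group (x axis), with the mean (line) and SD (bar) over 2 or 3 libraries. NDUFA6 in sgFOS (25.4 and 24.2 CPM) lies at the LA level, NDUFS1 is lowest in control replicate 1 at 55.4 CPM, and ATP5D is lower in sgScr than in LA.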

How the data were processed

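Poly(A) RNA libraries of A549 cells were sequenced as paired ends, and per the labels the reads were aligned to hg19 with STAR 2.7.10b and analysed with DESeq2 1.26.0. The authors deposited 1 table of raw read counts per gene for 9 libraries, with no normalisation; which program, gene models and strand mode produced the counts is not given in the sources used here. Libraries were grouped by their labels.

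From the counts, 3 comparisons (LA against control, sgScr against LA, sgFOS against sgScr) were each fitted on their own libraries with edgeR 4.0.16 (R 4.3.3): TMM scaling, filterByExpr, quasi-likelihood F test and Benjamini-Hochberg adjustment over all genes tested, with calls at an adjusted p under 0.05. The code was tested on simulated data. Alternatives were DESeq2 1.42.0, other scalings, no filter, a mean of at least 50 counts, a fit of all libraries, a replicate block, a loess correction (span 0.5) for length and GC, the study's threshold, a stricter threshold and leaving out each library. Lengths and positions came from a GRCh37 annotation matched by symbol, and promoters from RefSeq GRCh38.p14.

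Genes were named by role (core subunits, isoform pairs, regulators) and as the 3 largest called changes in each direction with a mean of at least 50 counts. The members, lists and tests were chosen with earlier results of these data known. Where few calls were made, they were named after their values were seen. Depth was 14507228 to 20456341 counts a library; within sgScr and sgFOS the subunit counts differed by 1.55 to 2.39 times the variance of counting alone, within LA by 27.7 and within control by 312 times, and limits given for a count of 0 cover counting error only. Values of some single genes are not reported here.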

Additional observations from a re-analysis of the deposited data

How the results depend on the processing

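In LA against control, 61 subunits fell and 0 rose, with a median log2 fold change of -1.67. Removing the length and GC trend gave 35 falls and a median of -0.85, with the replicate block 32 and -0.86, and with canonical transcripts, chosen after seeing the data, 36 and -0.88. Scaling by library size alone gave a median of -1.35, where the median over all genes was 0.33, and 70.1% of all calls were rises against 49.0%. Leaving out 1 library gave 2 to 64 falls, 0 to 1 rises and medians of -1.96 to -1.31. In sgFOS against sgScr (4 falls, 3 rises) the falls and rises were 2 and 1 with DESeq2, 0 and 0 in the fit of all 9 libraries, 2 and 4 with the replicate block, 2 and 5 with the length and GC correction, 2 and 6 with both, 2 and 5 with canonical transcripts, 1 and 0 by the study's rule, 2 and 1 at an adjusted p under 0.01, and 1 to 4 and 1 to 5 without 1 library; the median with block and correction was 0.052. In sgScr against LA (2 falls, 40 rises) they were 1 and 42 with DESeq2, 0 and 7 with all 9 libraries, 0 and 10 with the block, 0 and 4 with block and correction (median 0.34), 0 and 10 at 0.01, and 0 to 8 and 2 to 65 without 1 library; 1 fell without the filter and 26 rose by the study's rule. The cause of these shifts was not tested.

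Of the genes given with a value, those that turned sign were not called. In LA against control under the correction ATP5S was at -0.10 and ATP5SL at 0.15, and in sgFOS against sgScr TFAM was at 0.053. In LA against control, under the length and GC correction, alone and then with the block, SDHD was at 0.14 and 0.23, COX6B2 at 0.50 and 0.50, NDUFA4L2 at 0.36 and 0.45, PPRC1 at -0.087 and -0.045, GABPA at -0.030 and -0.023, GABPB1 at 0.15 and 0.16, and YY1 at -0.43 and -0.43. With canonical transcripts NDUFS1 was at -0.56, COX6B2 at 0.57, NDUFA4L2 at 0.38, PPARGC1B at -0.048, PPRC1 at -0.036, YY1 at -0.52 and TFAM at -0.17. With library size alone COX6B2 was at 0.20 and GABPB1 at 0.16. Leaving out 1 library gave ranges across 0 for SDHC (-0.28 to 0.51), COX6B2 (-0.66 to 0.48), PPRC1 (-0.14 to 0.86), GABPB1 (-0.39 to 0.12), ESRRA (-0.054 to 0.17), YY1 (-0.14 to 0.55) and TFB2M (-0.37 to 0.71), the ends of each but ESRRA's upper one being the fits without control replicate 1 or 2.

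The deviations of same-numbered libraries had correlations of -0.25 in LA against control, -0.13 and 0.02 in sgFOS against sgScr, and -0.01 and -0.02 in sgScr against LA. In LA against control both replicates give the same value, because each group has 2 libraries. These values cannot settle whether the numbers pair the libraries. The replicate block alone gave 44 falls and 0 rises in LA against control, and the crossed pairing, chosen after seeing the data, 64 and 0. Over all genes of LA against control, 1434 fell and 1380 rose, against 728 and 791 with the block, 934 and 877 with the correction, 3247 and 3552 in the fit of all libraries, and 68 to 2695 and 185 to 2383 without 1 library.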
